A study of Drosophila melanogaster with 3 samples.

Results

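Narrow aligned focal sites are short stretches of the genome of Drosophila S2 cells at which V5-tagged DSXF and V5-tagged DSXM each gave 1 peak and the 2 peaks lay on top of each other. A site was a DSXF peak that overlapped exactly 1 DSXM peak by at least 1 bp, where that DSXM peak overlapped no other DSXF peak. The centres had to lie at most 200 bp apart, the DSXF peak had to be narrower than 1200 bp, and the peaks had to be on 2L, 2R, 3L, 3R, X or 4. This gave 678 sites, which took 10.4% of the 6520 DSXF peaks and 12.6% of the 5370 DSXM peaks. They made up 16.3% of the 4163 1-to-1 pairs on these sequences and 20.3% of the 3334 pairs with centres within 200 bp. The sites were thus chosen by the number of partners, the distance between centres and the DSXF width of these same lists, so all values of these measures below are a description and carry no test.

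The first group was S2 cells transfected with a plasmid for V5-tagged DSXF, and the second was S2 cells transfected with a plasmid for V5-tagged DSXM. Both were selected with the plasmid pCoBlast and precipitated with anti-V5, and each list pooled 3 biological replicates. The series also has input DNA, without antibody, from S2 cells that were not transfected, pooled from 2 replicates, for which no file was analysed here. Both isoforms were tagged proteins made from plasmids in a cultured line, so the sites are those of introduced protein and not of DSX in a fly tissue. Each list holds dm3 positions of peaks without any height or score, and read depth is unknown. With 1 pooled list per isoform there is no replicate error and no test between isoforms, and intervals below (95%) cover counting error over sites only.

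Doublesex (DSX) is the transcription factor through which the Drosophila sex determination pathway shapes most sexual traits of the body. DSXF and DSXM arise by sex-specific splicing, share the DM domain that contacts DNA, bind as dimers, and differ in their C-terminal ends. In the fat body both isoforms bind the same enhancer of the yolk protein genes, where DSXF raises and DSXM lowers transcription. In chromatin immunoprecipitation a protein held at a single short element gives a focal peak whose width is set largely by the length of the sheared DNA fragments and by how a peak's edges are drawn, while several elements side by side give a broader one.

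Narrow DSXF peaks most often had no DSXM peak at all, and where they had one it was nearly always aligned. Of 6494 DSXF peaks on the 6 sequences, 1903 (29.3%) were narrower than 1200 bp. Of these 1903 peaks, 1155 (60.7%, Wilson interval 58.5 to 62.9%) overlapped no DSXM peak, 678 were the aligned sites, 46 were 1-to-1 pairs with displaced centres and 24 belonged to regions that the lists split differently. Among the 748 narrow DSXF peaks that did overlap DSXM, 90.6% (88.3 to 92.5%) were thus narrow aligned sites. The aligned share depended on width within the narrow range. It was 10.4% of 77 DSXF peaks of 800 to 899 bp, 19.6% of 306 peaks of 900 to 999 bp, 35.5% of 819 peaks of 1000 to 1099 bp and 50.4% of 629 peaks of 1100 to 1199 bp. Just past the limit, from 1200 to 1299 bp, it was 54.6% of 443 peaks, so the limit of 1200 bp cuts through a continuous rise and marks no step in the data. Of those 443 peaks, 176 had no DSXM peak, 242 were aligned, 19 were displaced pairs and 6 were split. Close alignment was thus not particular to the narrow peaks. Over all widths, 3334 of the 4163 1-to-1 pairs had centres within 200 bp. Seen from the DSXM list, a lack of a partner was less frequent. Of 1362 DSXM peaks below 1200 bp, 367 (26.9%, 24.7 to 29.4%) overlapped no DSXF peak. Another 573 (42.1%) were at the narrow aligned sites and 235 (17.3%) were in aligned pairs with a wider DSXF peak. The remaining narrow DSXM peaks were in displaced pairs (124) or split regions (63). Width and centre distance were part of the rule, so these shares are a description.

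Pairs on either side of the 2 limits are given for their values alone. Just inside the width limit, 3 sites had DSXF peaks of 1199 bp, with DSXM peaks of 1089 bp (2R from 5448050), 1038 bp (2R from 6308825) and 1338 bp (X from 4608741). Just outside it, 3 aligned pairs had DSXF peaks of 1200 bp, with DSXM peaks of 1014 bp (2R from 3136068), 1311 bp (2R from 3663570) and 1207 bp (X from 17645277). Just inside the centre limit, the centres of narrow sites were 187, 184 and 174.5 bp apart. Just outside it, the centres of narrow pairs were 200.5, 210.5 and 212 bp apart. Few pairs lay near the centre limit, since 11 sites had centres more than 150 bp apart, whereas 317 sites had a DSXF width of 1100 to 1199 bp.

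Although the rule limited the DSXF width alone, most sites were narrow for both isoforms. The DSXF peaks ran from 662 to 1199 bp, with a median of 1094 bp and quartiles of 1046 and 1138 bp. The DSXM peaks ran from 310 to 2301 bp, with a median of 1064.5 bp and quartiles of 1006 and 1150 bp. The DSXM peak was also below 1200 bp at 573 of the 678 sites (84.5%), and it was 1500 bp or wider at 9. By the rule the DSXF peaks came from the narrow end of their list. On the 6 sequences the most frequent class of 100 bp was nonetheless 1000 to 1099 bp in either list, with 819 DSXF peaks (12.6%) and 556 DSXM peaks (10.4%), and 608 of the sites (89.7%) had a DSXF peak of 1000 bp or more. Chromatin had been sheared to between 200 and 1000 bp, per the labels. At the other end, peaks of exactly 310 bp, the smallest width in either list, numbered 5 for DSXF and 6 for DSXM, and 3 of the DSXM ones were at these sites.

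**Figure D1:**
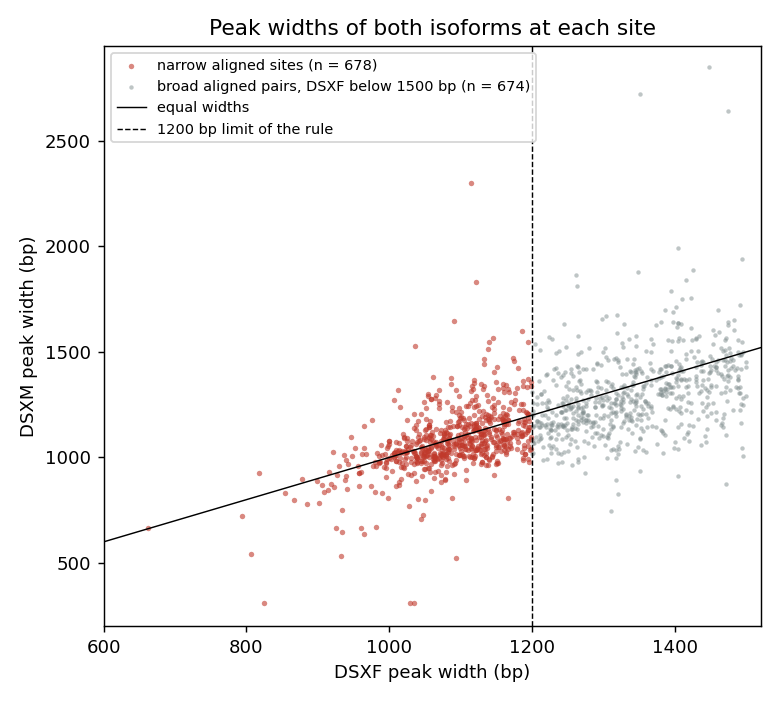
DSXF peak width (x axis, bp) against DSXM peak width (y axis, bp), 1 point per site, for the 678 narrow aligned sites and for the 674 aligned pairs with a DSXF peak of 1200 to 1499 bp. The dashed line is the 1200 bp limit and the solid line marks equal widths. The cloud runs through the limit without a break, and 3 sites lie at the bottom with a DSXM peak of 310 bp.

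Widths of the isoforms were close at most sites. The difference, DSXF minus DSXM, had a median of 20 bp with quartiles of -44.8 and 73.8 bp, and the widths were within 100 bp of each other at 464 sites (68.4%). DSXF had the wider peak at 395 of 675 sites of unequal width (58.5%, 54.8 to 62.2%), and 3 sites had equal widths. Broad aligned pairs, in which the DSXF peak was 1200 bp or wider, had the wider peak in DSXF in 67.3% of 2646 pairs (65.5 to 69.1%). The rule limited the DSXF width at the narrow sites and so bears on this share, and the 2 shares cannot be compared. Across the 678 sites the 2 widths were related with Pearson's r = 0.52 and Spearman's rho = 0.53, and across the 2656 broad aligned pairs with r = 0.98 and rho = 0.94. The narrow sites span a far shorter range of widths, which by itself lowers a correlation, and all sites share the same 2 lists.

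The centres of the peaks nearly coincided. Their distance had a median of 22.8 bp, quartiles of 11.5 and 44.5 bp, and a highest value of 187 bp. They were within 10 bp at 159 sites (23.5%), within 25 bp at 367 (54.1%), within 50 bp at 530 (78.2%) and within 100 bp at 640 (94.4%). In broad aligned pairs the median distance was 44.5 bp, and 54.5% of pairs had centres within 50 bp. As a share of the DSXF width the median distance was 2.17% at narrow sites, 2.10% in all broad pairs and 2.96% in the 674 broad pairs with a DSXF peak below 1500 bp. Neither isoform lay to one side: the DSXF centre had the lower coordinate at 341 of 671 sites with unequal centres (50.8%, 47.0 to 54.6%). The distance changed little with width inside the narrow range. Its median was 22.8 bp at the 70 sites with a DSXF peak below 1000 bp and 26.2 bp at the 134 sites from 1150 to 1199 bp.

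**Figure D2:**
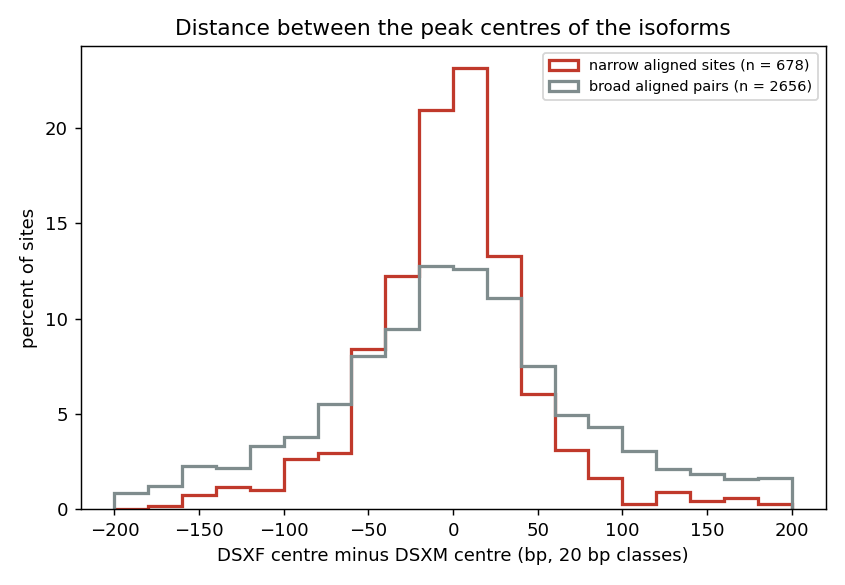
DSXF centre minus DSXM centre (x axis, bp, classes of 20 bp) against the percent of sites (y axis), for the 678 narrow aligned sites and the 2656 broad aligned pairs. Both distributions are centred near 0, with a median of -0.5 bp for narrow sites and 0.5 bp for broad pairs, and the narrow sites are more tightly gathered.

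Edges differed by more than the centres did, whose median distance was 22.8 bp. This follows in part from the measures. A centre is the mean of start and end, so opposite shifts of the edges, found at 418 sites (61.7%), partly cancel in it. The rule also limited the centre distance and not the edges. The median distance between the starts was 32 bp and that between the ends was 36.5 bp, and both edges were within 50 bp at 280 sites (41.3%). The bases inside both peaks made up a median of 92.8% of the merged site, with quartiles of 88.8 and 95.7%, and at 24 sites they made up less than 75%. Over all sites the overlapping bases came to 697.7 kb of 769.6 kb merged, or 90.7%. These bases are a small part of the lists: the sites held 5.68% of all bases in DSXF peaks and 6.80% of those in DSXM peaks. In their arrangement, the DSXF peak enclosed the DSXM peak at 267 sites (39.4%) and was enclosed by it at 167 (24.6%). It was shifted at both edges to lower coordinates at 131 sites and to higher coordinates at 113. An edge difference of 200 bp or more was found at 51 sites (7.52%), and at 46 of these 1 edge alone was involved.

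The narrowest site was on 3L, with a DSXF peak of 662 bp from 8597083 to 8597744 and a DSXM peak of 667 bp from 8597079 to 8597745. Its starts differed by 4 bp and its ends by 1 bp, and its nearest other peak was 22.96 kb away. The next narrowest was on 3R, with a DSXF peak of 794 bp from 9536257 to 9537050 and a DSXM peak of 724 bp from 9536297 to 9537020. The remaining ones of the 5 narrowest were less even and were all on 3R. From 12229256 the DSXF peak measured 806 bp and the DSXM peak 542 bp, and their centres were 144 bp apart. From 4166410 the DSXF peak measured 818 bp and lay wholly inside a DSXM peak of 927 bp. From 8397946 the DSXF peak measured 825 bp and enclosed a DSXM peak of 310 bp.

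At 7 sites the centres were at the same base position. The most exact of them was on X, with a DSXF peak of 1096 bp from 17317239 to 17318334 and a DSXM peak of 1104 bp from 17317235 to 17318338, so that each edge differed by 4 bp. On 3L a DSXF peak of 1076 bp from 16978279 and a DSXM peak of 1046 bp from 16978294 shared a centre, with edges 15 bp apart. On 3R the DSXF peak from 6736341 (1099 bp) and the DSXM peak from 6736369 (1043 bp) had edges 28 bp apart. A site on X from 11395915 had a DSXF peak of 1134 bp and a DSXM peak of 1076 bp, and a site on 2R from 18116420 had 1165 bp for DSXF and 1071 bp for DSXM.

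Strongly unequal widths were rare, with 23 sites (3.39%) that differed by more than 300 bp, 10 of them wider in DSXF. The largest excess of DSXF was on 3L from 8499798 to 8500832, where the DSXF peak of 1035 bp enclosed a DSXM peak of 310 bp. A like case was on 3R from 9382443 to 9383471, with 1029 bp for DSXF and 310 bp for DSXM. On 2R from 4834326 the DSXF peak measured 1093 bp and the DSXM peak 522 bp, and on 3L from 17973631 the DSXF peak measured 933 bp and the DSXM peak 534 bp. In the other direction, the DSXF peak on X from 17499825 to 17500939 measured 1115 bp and lay inside a DSXM peak of 2301 bp that ran from 17499160 to 17501460. On 2R from 6394391 the DSXF peak measured 1122 bp and the DSXM peak 1830 bp. The next were on 3L from 15827968 (1090 bp for DSXF, 1648 bp for DSXM), on 3L from 3518129 (1036 bp for DSXF, 1527 bp for DSXM) and on 2L from 21913719 (1145 bp for DSXF, 1566 bp for DSXM). At each of the 5 sites with the largest DSXM excess the DSXF peak lay wholly inside the DSXM peak. The rule fixed this, because such large width differences leave no other arrangement when the centres are at most 200 bp apart.

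Sites were sparse on the X chromosome. X held 56 sites, or 2.51 per Mb (exact Poisson interval 1.90 to 3.27), and the 4 long autosome arms held 615, or 6.38 per Mb (5.88 to 6.90). The density on X was 0.394 times that on the autosome arms (exact interval 0.294 to 0.519). The same ratio was 0.601 (0.533 to 0.676) for broad aligned pairs, 0.703 (0.572 to 0.857) for displaced 1-to-1 pairs, 0.605 (0.504 to 0.722) for narrow DSXF peaks without a DSXM peak and 0.645 (0.599 to 0.693) for all DSXF peaks. The ratio for narrow sites was 0.656 times that for broad aligned pairs (conditional exact interval 0.478 to 0.887), 0.561 times that for displaced pairs (0.393 to 0.794) and 0.652 times that for narrow DSXF peaks without a DSXM peak (0.462 to 0.910). No p-value is given because peaks of 1 list are not replicates. Densities are per Mb between the outermost peaks of a sequence in either list.

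X and the pooled autosome arms differed in the first steps of the choice. At the last step their intervals overlapped, but only 63 peaks on X reached it. Shares of single autosome arms at the last step are given below. The steps used the measures of the rule, so these shares are a description. DSXF peaks were wider on X, with a median of 1683 bp against 1524 bp on the autosome arms, and 24.4% of them on X and 30.1% on the autosome arms were narrower than 1200 bp. Of these narrow peaks, 63 of 204 on X (30.9%, 24.9 to 37.5%) and 678 of 1687 on the autosome arms (40.2%, 37.9 to 42.5%) overlapped a DSXM peak. Of the narrow peaks that overlapped DSXM, 56 of 63 on X (88.9%, 78.8 to 94.5%) and 615 of 678 on the autosome arms (90.7%, 88.3 to 92.7%) were aligned 1-to-1 sites. Copy number and read depth of X in these cells are not in the files, and their part in the result was not tested. The sites that X did hold were aligned like the others: the median distance of centres was 20.5 bp on X and 23.5 bp on the autosome arms. Their median DSXF width was 1128.5 bp on X and 1089 bp on the autosome arms.

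**Figure D3:**
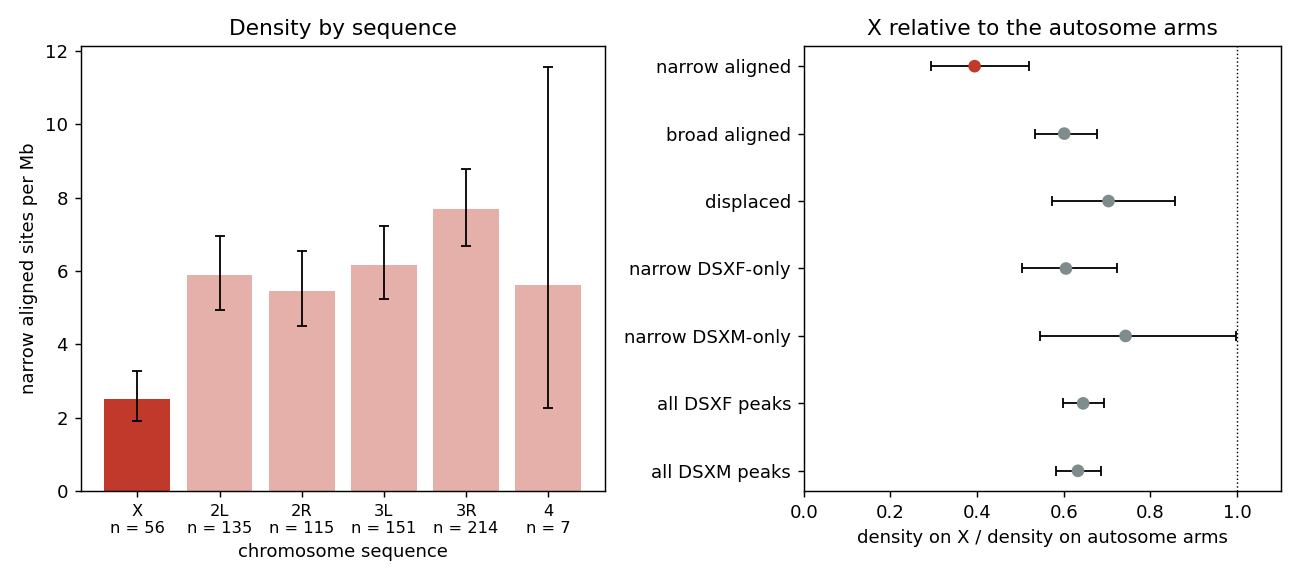
Left, narrow aligned sites per Mb (y axis) by chromosome sequence (x axis) with exact Poisson intervals. Right, density on X divided by density on the 4 autosome arms (x axis) with exact intervals, for narrow aligned sites and for other groups of peaks, where the dotted line marks equal density. Narrow aligned sites have 2.51 per Mb on X and the lowest ratio of the groups drawn, 0.394.

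Among the autosome arms, 3R held most sites. It had 214 sites, or 7.68 per Mb (6.68 to 8.78), whereas 2L had 5.88 per Mb, 2R had 5.45 and 3L had 6.17. The sites were 13.0% of the DSXF peaks on 3R (11.5 to 14.7%) and 6.71% of those on X (5.20 to 8.61%). On the other arms the share was 9.29% on 2R (7.80 to 11.0%), 10.3% on 2L (8.79 to 12.1%) and 10.7% on 3L (9.16 to 12.4%). Here too the intervals of 2L and 3L overlapped that of 3R. On 3R 95.96% of the narrow DSXF peaks that overlapped DSXM were aligned 1-to-1 sites (92.5 to 97.9%). This share was 87.1% on 2L (80.9 to 91.5%), 87.3% on 3L (81.5 to 91.5%) and 90.6% on 2R (84.2 to 94.5%). The interval of 3R overlapped that of 2R and lay just above those of 2L and 3L. This step is part of the rule, so these shares are a description and carry no test. The share of sites with the wider peak in DSXF was 69.6% on 2R (60.6 to 77.2%). It was 56.7% on 2L (48.3 to 64.8%), 52.3% on 3L (44.4 to 60.1%), 58.5% on 3R (51.8 to 64.9%) and 60.7% on X (47.6 to 72.4%). The interval of 2R overlapped all of these except that of 3L. The rule limited the DSXF width and so bears on these shares.

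The small chromosome 4 held 7 sites among its 51 DSXF peaks. The DSXM peak was the wider at 5 of the 7, and the same held for 15 of the 23 broad aligned pairs there, whereas DSXF was the wider over all sequences in both groups. From 194916 the DSXF peak measured 1034 bp and the DSXM peak 1207 bp, and from 247860 they measured 1113 bp for DSXF and 1258 bp for DSXM. From 331667 they measured 1120 bp for DSXF and 1270 bp for DSXM, and from 444807 they measured 1199 bp for DSXF and 1357 bp for DSXM. The site from 406900 was closer, with 1113 bp for DSXF and 1150 bp for DSXM. DSXF was the wider at the sites from 480530 (1039 bp against 998 bp for DSXM) and from 956601 (1068 bp against 1044 bp for DSXM). With 7 sites the share wider in DSXF was 28.6%, with a wide interval of 8.22 to 64.1%. The 58.5% of all sites lies inside that interval but includes these 7 sites. The rule limited the DSXF width, so both shares are a description and carry no test.

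Along the 5 long arms the sites and the broad aligned pairs were not spread alike. Each arm was divided into 5 equal parts from its telomere side to its centromere side. From telomere to centromere the parts held 124, 111, 149, 169 and 118 of the 671 sites on these arms. The fourth part held 25.2% of the sites (22.0 to 28.6%) and 20.1% of the 2633 broad aligned pairs (18.6 to 21.6%). The second part held 16.5% of the sites (13.9 to 19.5%) and 21.7% of the broad pairs (20.2 to 23.3%). Of all DSXF peaks on these arms the fourth part held 20.5% and the second 20.9%. Within arms, the fourth part held 22.2% of the sites and 15.7% of all DSXF peaks on 2L, and 29.6% of the sites and 22.2% of the peaks on 2R. It held 24.5% of the sites and 23.2% of the peaks on 3L, 23.8% and 19.2% on 3R, and 30.4% and 23.6% on X. On each single arm the intervals of these shares of sites and of peaks overlapped. The fourth part was not the fullest on each arm, since the third held most sites on 3L (40 of 151), and on 2L the first part held as many as the fourth (30 each).

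**Figure D4:**
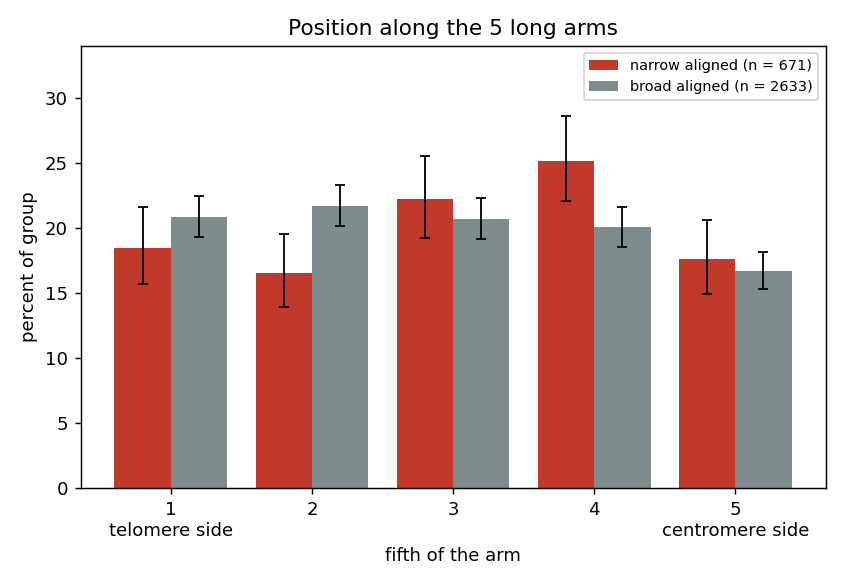
Percent of sites (y axis) in each of 5 equal parts of the long arms 2L, 2R, 3L, 3R and X, from the telomere side to the centromere side (x axis), for 671 narrow aligned sites and 2633 broad aligned pairs, with Wilson intervals. Narrow sites are fewest in the second part (16.5%) and most frequent in the fourth (25.2%).

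The sites were found along all long arms. Of 121 bins of 1 Mb on the long arms, 114 held a site, with a median of 5 and a highest count of 15, on 2L between 14 and 15 Mb. In that bin the 15 sites were among 54 DSXF and 45 DSXM peaks, with 18 broad aligned pairs. The numbers of narrow sites and broad aligned pairs per bin were related with Spearman's rho = 0.54 and Pearson's r = 0.52 over the 121 bins, and within arms rho was between 0.22 on X and 0.52 on 3L. Bins share chromosome and local peak density, so these values are a description. The bin on 2R between 13 and 14 Mb had 0 sites but 23 broad aligned pairs, and the bin on X between 10 and 11 Mb had 0 sites and 17 broad aligned pairs. The longest stretch between consecutive sites was on X from 9967052 to 11395914 (1.43 Mb), and it held 52 DSXF and 49 DSXM peaks of other kinds.

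In bins of 50 kb, 435 of the 544 bins with a site held just 1, and the other 109 held 243 of the 678 sites. The fullest bin was on 3R from 11150001 to 11200000, with 6 sites among 11 DSXF and 10 DSXM peaks. Its DSXF peaks began at 11155927 (980 bp), 11158473 (961 bp), 11163348 (1159 bp), 11165991 (918 bp), 11171350 (1064 bp) and 11197107 (1066 bp). The DSXM peaks at these sites measured 978, 666, 1239, 873, 933 and 995 bp in the same order, and the centres were 11 to 73.5 bp apart. The bin on 3R from 12850001 to 12900000 followed with 4 sites among 8 DSXF and 8 DSXM peaks, with DSXF peaks from 12865824, 12893086, 12894899 and 12897961. Next in the named order were bins on 2L with 3 sites each, from 8500001, 14200001 and 16300001.

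Neighbouring sites could lie very close together. The closest were on 3R, where a site with DSXF from 12266865 to 12268005 (1141 bp) and DSXM from 12266921 to 12268118 (1198 bp) was followed after 57 bp by a site with DSXF from 12268176 to 12269282 (1107 bp) and DSXM from 12268253 to 12269290 (1038 bp). Each list thus gave 2 separate peaks here. Further such doublets lay on 3R with DSXF peaks from 3833182 and 3834562 (242 bp between sites), on 3L from 16572733 and 16574097 (286 bp), on 2R from 6308825 and 6310313 (289 bp) and on 3R from 12893086 and 12894899 (558 bp). They were exceptions: the median distance between consecutive sites was 96.9 kb, 41 of 666 distances were 5 kb or less, and 83 consecutive pairs had no other peak of either list between them.

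The nearest other peak of either list was a median of 3.21 kb from a site (interval of the median 2.70 to 3.63 kb), with quartiles of 1.10 and 8.20 kb. At 237 sites (35.0%, 31.5 to 38.6%) no other peak lay within 5 kb, and at 157 (23.2%) one lay within 1 kb. For broad aligned pairs the median was 2.00 kb (1.85 to 2.18 kb) and 23.6% (22.0 to 25.3%) had no other peak within 5 kb. For narrow DSXF peaks without a DSXM peak the median was 3.02 kb (2.71 to 3.28 kb) and 35.2% (32.5 to 38.0%) had none within 5 kb, so in this measure the sites and the narrow peaks without DSXM were close. These gaps run from edge to edge, so the width of a region enters them. Measured between centres, the median was 4.72 kb (4.24 to 5.13 kb) for the sites and 4.31 kb (4.20 to 4.45 kb) for broad aligned pairs. It was 4.715 kb (4.39 to 5.02 kb) for displaced pairs, whose median from edge to edge was 1.88 kb. For narrow DSXF peaks without a DSXM peak it was 4.36 kb (4.04 to 4.64 kb). On X the median gap was 4.54 kb and on the autosome arms 3.03 kb.

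**Figure D5:**
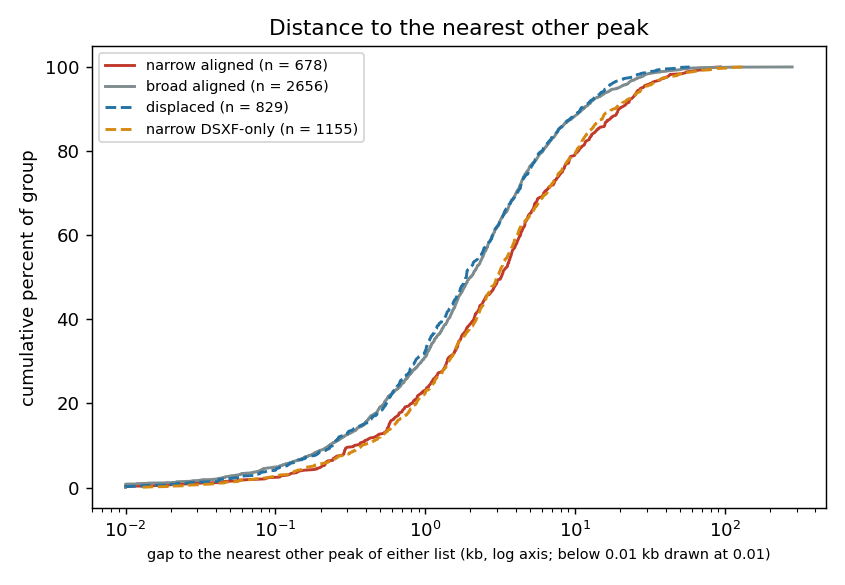
Gap from a site to the nearest other peak of either list (x axis, kb, log scale) against the cumulative percent of the group (y axis), for narrow aligned sites, broad aligned pairs, displaced pairs and narrow DSXF peaks without a DSXM peak. The curve of the narrow aligned sites (median 3.21 kb) runs with that of the narrow DSXF-only peaks (3.02 kb), to the right of the broad (2.00 kb) and displaced pairs (1.88 kb). Gaps are drawn from edge to edge. Between centres the median was 4.72 kb for the sites and 4.715 kb for displaced pairs.

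The nearest other peak belonged to a broad aligned pair at 264 sites (38.9%), was a DSXF peak without DSXM at 171 (25.2%), belonged to another narrow aligned site at 83 (12.2%) or to a displaced pair at 78 (11.5%), was a DSXM peak without DSXF at 63 (9.29%) and was part of a split region at 19 (2.80%). The share for another narrow aligned site had an interval of 9.99 to 14.9%. Among all 11841 peaks of both lists on these sequences the same kinds made up 44.9, 17.1, 11.5, 14.0, 6.64 and 5.92%. These shares count both peaks of a pair, whereas a site has 1 nearest peak. The neighbours and all peaks are therefore not counted alike, and no excess or lack of a kind can be read from them. The neighbouring peak had a median width of 1487.5 bp, and all peaks had 1563 bp. Alignment was close both beside a neighbour and far from one: the median distance of centres was 26 bp at the 157 sites with a gap of up to 1 kb and 17.5 bp at the 67 sites with a gap over 20 kb.

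The most isolated site was on 3L, with a DSXF peak of 1055 bp from 22626864 to 22627918 and a DSXM peak of 1156 bp from 22626769 to 22627924, and its nearest other peak was 92.7 kb away. Then came a site on 2L from 2584969 (1049 bp for DSXF, 1015 bp for DSXM) at 78.8 kb and a site on 2R from 9613463 (1046 bp for DSXF, 1055 bp for DSXM) at 78.0 kb. On 2R the peaks of this site ended at the same base, 9614508. A site on 3R from 6361014 (1189 bp for DSXF, 1168 bp for DSXM) was 77.3 kb from the next peak, and one on 3L from 2274299 (976 bp for DSXF, 1175 bp for DSXM) was 74.8 kb away. The centres of these 5 sites were between 3.5 and 50.5 bp apart, and 12 sites in all were more than 50 kb from any other peak.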

How the data were processed

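Chromatin immunoprecipitates of V5-tagged DSXF and DSXM from S2 cells were sequenced. Fixation was in 1% formaldehyde (10 min), and 100 ng of DNA went into each of these libraries, per the labels' protocols. Bowtie 0.12.7 and Picard were used with the build dm3, per the submitters' processing notes. Replicates were pooled by the authors before alignment, per the series' design text, in 4 sequence runs for DSXF and 3 for DSXM. How peaks were called is not given in the sources used here. All deposited values are start and end positions, counted from 0 in the lists and printed counted from 1. A list was assigned to its isoform by the sample title in its name.

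Sites, gaps and intervals were computed in Python 3.11.15 with NumPy 2.4.6, pandas 2.3.3 and SciPy 1.17.1, and checked on simulated lists. The 4658 overlapping pairs equalled those of bedtools 2.31.1. No peaks overlapped within a list (0 in each). Shares have Wilson intervals, density ratios exact conditional ones and medians exact binomial ones. The sites, measures and limits were chosen with earlier results of these data known. Named sites are the 5 narrowest, closest-centred, most isolated and most unequal in each direction, the 5 closest doublets, the 5 densest bins, those on chromosome 4 and those beside the limits. No dm3 sequence or annotation was used here, so no gene is named and no base sequence is printed. Alternatives were other limits on centre distance and width, a reciprocal overlap, and other measures of gap and of X density.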

Additional observations from a re-analysis of the deposited data

How the results depend on the processing

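The limits set how many sites there are. With a DSXF width below 1000 bp there were 70 sites and with one below 1500 bp there were 1352. Relative to the autosome arms, site density on X stayed below 1 in all 8 alternatives run for it. It was 0.194 with the limit of 1000 bp, with a wide interval of 0.0390 to 0.591 because 70 sites were left. All DSXF peaks are sparser on X, with a ratio of 0.645, so a density ratio below 1 is not particular to the sites. As a share of the DSXF peaks of each sequence it was 0.612 (0.457 to 0.805). The share of sites wider in DSXF was 62.9% with a limit of 1000 bp, 62.6% with 1500 bp, 78.3% with the limit of 1200 bp on the DSXM peak instead and 69.3% with it on both peaks, an alternative chosen after seeing the data. This share changed with the peak that carried the limit, so its size rests on the rule. The share with centres within 50 bp was 82.8% with centres limited to 100 bp, 68.9% with a width limit of 1500 bp, 73.3% with the limit on DSXM and 84.8% with it on both. The share with no other peak within 5 kb was 38.6% against the DSXF list alone and 47.3% between centres, where the median distance was 4.72 kb. Elsewhere values stayed inside the interval of the reported one or within 1.5 times the count. Replicates were pooled and could not be left out. No paired analysis was possible because the authors pooled the replicates into a single list for DSXF and another for DSXM. Depth is unknown, so nothing can be said of sites missed in either list.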
